A study of Mus musculus with 8 samples.

Results

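The 6 Wnt ligand genes Wnt4, Wnt5a, Wnt5b, Wnt7a, Wnt7b and Wnt9a and the 2 Wnt secretion genes Wls and Porcn were followed in the RNA of mouse cochlear hair cells sorted by a reporter. These 8 genes were picked by name, with earlier results of these data known. All 8 were found among the 25343 genes of the deposited table. The libraries came from 4 pools of Ndp knockout (KO) cells and 4 pools of wild-type (WT) cells. Ndp encodes norrin, a secreted protein that is no Wnt in sequence but binds a frizzled receptor. Both genotypes shared the mixed C57BL/6 and 129 background, the ages of postnatal days 4 to 6 and the Atoh1-GFP reporter used for the sort. Each pool was made from 12 to 20 sensory epithelia in a tube, and the labels do not tie pools to litters or sexes. The part of Ndp that the knockout allele lacks and the construct that carries Atoh1-GFP are not given in the sources used here.

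Wnt proteins are secreted glycoproteins that carry a fatty acid. The acyltransferase porcupine, the product of Porcn, attaches it to a serine in the endoplasmic reticulum, and Wntless, the product of Wls, then carries the ligand to the cell surface. At the receiving cell Wnts bind frizzled receptors and act through beta-catenin or through beta-catenin-independent routes such as planar cell polarity. In the cochlea Wnt signalling is known for roles in progenitor proliferation, hair cell formation and the orientation of hair bundles.

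The serine that porcupine modifies ties the ligands to the secretion genes, and the bases that encode its surroundings are shown for that reason. Each sequence runs 5′ to 3′ along the coding strand, was taken from the GENCODE M21 transcripts (mm10), and has the codon of the acylated serine in capitals.
Wnt7a: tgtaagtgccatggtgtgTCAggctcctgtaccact
Wnt7b: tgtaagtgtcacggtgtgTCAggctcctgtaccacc
Wnt9a: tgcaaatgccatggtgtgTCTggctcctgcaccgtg
Wnt5a: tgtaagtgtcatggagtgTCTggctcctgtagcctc
Wnt5b: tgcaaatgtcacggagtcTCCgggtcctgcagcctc
Wnt4: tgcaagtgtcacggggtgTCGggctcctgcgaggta
The windows lie at chr6:91366266-91366301 (minus strand) for Wnt7a, chr15:85537806-85537841 (minus) for Wnt7b, chr11:59330920-59330955 (plus) for Wnt9a, chr14:28522509-28522544 (plus) for Wnt5a, chr6:119433794-119433829 (minus) for Wnt5b and chr4:137296339-137296374 (plus) for Wnt4. The stretch was found by translating the coding sequences and searching for cysteine, histidine, glycine, any residue, serine, glycine, serine and cysteine in that order, with the first serine taken as the acylated one. It occurred in 19 of 21817 coding genes searched (0.0871%), and these were the 19 Wnt ligand genes of the mouse. Over the 36 bases shown, 21 were identical in all 6 ligands. Wnt7a and Wnt7b shared 33 of the 36, while Wnt5b and Wnt7a shared 23.

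The gene counts recovered from the deposited values summed to 35077950 to 48329827 reads per library, which may be rounded estimates. Ndp, the targeted gene, had 10.5 to 66.8 normalized counts in knockout libraries and 90.4 to 206 in wild-type libraries, so the genotypes did not overlap, although its limma adjusted p over all genes was 0.895. The summed level of 12 hair cell markers (among them Pou4f3, Myo7a and Otof) was 399866 to 467575 normalized counts in the knockout and 377024 to 436371 in wild type, with every marker detected in every library. Markers of supporting cells, the cells that surround hair cells, were abundant as well, with a sum over 12 genes of 290905 to 434182 in the knockout and 263915 to 491005 in wild type. The levels of the Wnt genes are therefore those of sorted material that also held supporting cell RNA, and fewer cells of a type cannot be told apart from less RNA per cell. In the knockout 9 of 10 macrophage markers, 5 of 6 endothelial markers and 7 of 10 mesenchyme and fibrocyte markers had a positive log2 difference, against 52.5% of all genes tested. The median limma log2 differences of these lists were 1.79, 1.07 and 0.64. Limma gave larger differences than DESeq2 for markers near 0 in some libraries. The values were 3.20 against 1.04 for Lyz2, 2.55 against 1.08 for Cd68 and 2.46 against 1.21 for Flt1. For others, such as Csf1r (1.04 against 1.14) and Coch (1.84 against 2.04), DESeq2 gave the larger value. At an unadjusted p under 0.05 limma listed 4 of 10 macrophage, 1 of 6 endothelial and 3 of 10 mesenchyme markers, against 5.57% of all genes. By the same measure edgeR listed 2, 0 and 2 of these markers and DESeq2 2, 0 and 3, against 4.55% and 6.26% of all genes. DESeq2 called 1 of them, the mesenchyme list's Coch, a gene of the ear's fibrocytes, against 0.0882% of all genes, while limma and edgeR called 0. Their summed levels were 3737 to 5879 normalized counts in the knockout and 2088 to 4935 in wild type for macrophages, 3032 to 4430 and 2603 to 4330 for endothelium, and 18781 to 35963 and 17440 to 24353 for mesenchyme. Schwann and satellite glia markers summed to 17931 to 35337 in the knockout and 14829 to 33438 in wild type, and spiral ganglion neuron markers to 60866 to 66190 in the knockout and 62273 to 70513 in wild type. Across the 8 libraries, Gata3 held 36548 to 45163 of the neuron sum and Fabp7 9534 to 28873 of the glia sum. Egfl7 held 2498 to 4283 of the endothelial sum and C1qb 1707 to 2636 of the macrophage sum. Single genes thus weigh heavily in these sums, and whether those genes mark only the named cells in this material was not tested. Ptprc, Tek, Flt1 and Prph were at 0 reads in at least 1 library. Other lists also held genes at an unadjusted p under 0.05, the same number by limma, edgeR and DESeq2. These were 2 of 12 hair cell markers (higher in the knockout), 3 of 12 supporting cell markers (lower) and 2 of 8 neuron markers (1 in each direction). The log2 difference was positive for 10 of 12 hair cell, 4 of 12 supporting cell, 5 of 8 neuron and 4 of 8 glia markers. The part of the cells of these lists in the Wnt gene levels was not tested.

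Levels were first compared between the genes, as normalized counts per kilobase of exon (the union of the exons of protein-coding transcripts in GENCODE M21). Wls stood highest with 2665 ± 257 normalized counts per kb in the knockout and 2363 ± 575 in wild type (SD, n = 4 each). Its level over the 8 libraries exceeded that of 91.3% of 14654 coding genes tested. The ligand genes Wnt7b, with 981 ± 124 and 1086 ± 230 per kb in knockout and wild type, and Wnt7a, with 828 ± 214 and 1113 ± 343, came next (SD, n = 4 each). Wnt7b was the higher of this pair in 4 of 8 libraries by the union length, and in 8 of 8 by the longest transcript or by coding length, with ranges that overlapped by each, so their order depends on the length used. With the length of the longest transcript in place of the union, the mean of Wnt7b over the 8 libraries was 1403 per kb, against 1034 with the union, and that of Wnt7a stayed at 970.3.

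Porcn had 332 ± 57.3 normalized counts per kb in the knockout and 319 ± 120.1 in wild type (SD, n = 4 each). The ranges of Porcn and Wnt9a overlapped, as did those of Wnt9a and Wnt5a. Wnt9a had 205 ± 43.2 per kb in the knockout and 152 ± 50.3 in wild type, and Wnt5a had 119 ± 50.01 and 105 ± 9.58 (SD, n = 4 each). Wnt5b and Wnt4 were the lowest of the 8 genes. Wnt5b had 31.3 ± 6.08 per kb in the knockout and 27.4 ± 22.5 in wild type, and Wnt4 had 15.4 ± 2.83 and 16.5 ± 4.12 (SD, n = 4 each), levels above those of 16.9% and 11.5% of the coding genes tested. The order of neighbours held in all 8 libraries, with no overlap of the ranges, for Wnt7a over Porcn and Wnt5a over Wnt5b by each of the 3 lengths. Wls lay above Wnt7b in 8 of 8 libraries with no overlap by the union, but the ranges overlapped by the longest transcript (8 of 8) and by coding length (7 of 8). By coding length Porcn was above Wnt9a in 3 of 8 libraries and Wnt9a above Wnt5a in 2 of 8, so the order within this trio is not settled. Ndp itself, which also encodes a frizzled ligand, had 75.3 ± 27.5 per kb in wild type (SD, n = 4), with a mean between those of Wnt5a and Wnt5b and a range of 46.6 to 106 that overlapped both.

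**Figure D1:**
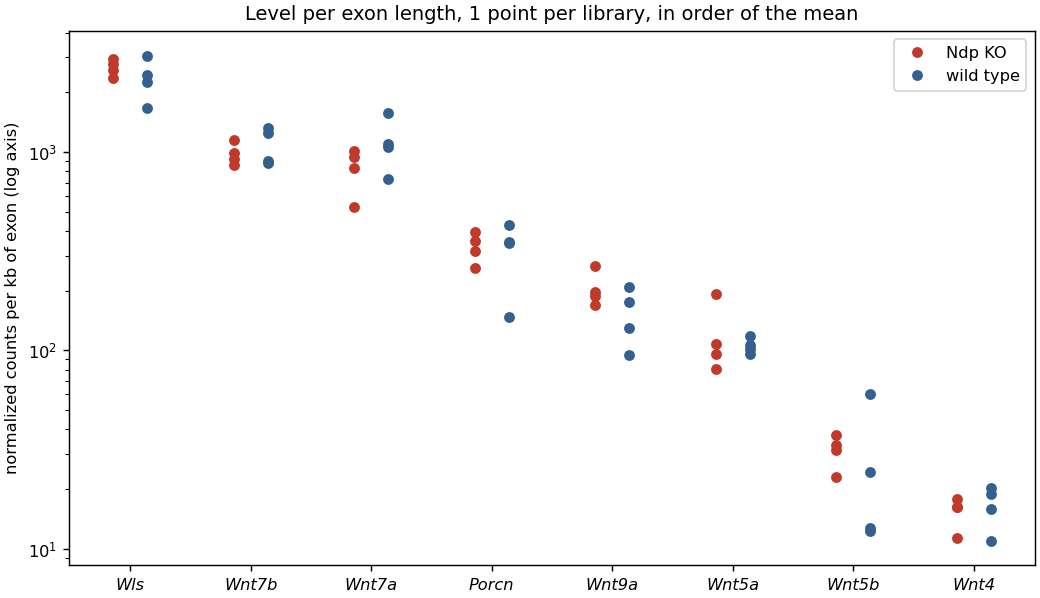
Level of the 8 genes as normalized counts per kilobase of exon on a log axis, with 1 point per library, knockout libraries in red and wild-type libraries in blue. Wls lies above every ligand gene, Wnt7b and Wnt7a overlap, and Wnt5b and Wnt4 lie lowest.

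The make-up of the ligand transcripts was described next, over the 13 Wnt ligand genes of the table. The 6 ligand genes held 93.3 to 97.2% of the summed level per kb in knockout libraries and 96.5 to 98.7% in wild-type libraries. They were chosen with earlier results of these data known, so this share may follow from the choice. Wnt7a and Wnt7b together made up 81.4, 82.04, 74.8 and 80.3% in the knockout replicates 1 to 4, against 84.5, 88.5, 83.9 and 85.3% in the wild-type replicates 1 to 4. All 4 knockout values lay under all 4 wild-type values. The joint share was chosen after its values were seen and carries no test. It ranged from 78.4 to 84.3% in the knockout and from 86.03 to 89.8% in wild type by the longest transcript, and from 76.8 to 82.5% and from 83.5 to 87.9% by coding length, so the genotypes did not overlap by any of the 3 lengths. The share of Wnt9a was 6.97 to 11.9% in the knockout and 4.12 to 8.82% in wild type, and that of Wnt5a 3.77 to 7.96% and 2.94 to 4.99%, with overlap of the genotypes in both.

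**Figure D2:**
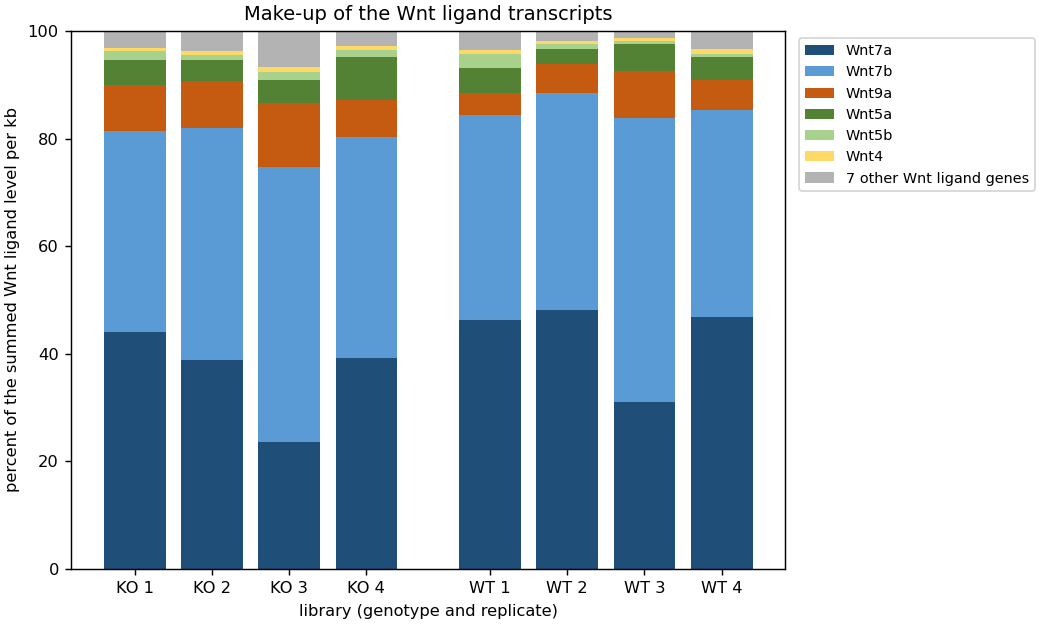
Share of each ligand gene in the summed level per kb of the 13 Wnt ligand genes, 1 bar per library, knockout libraries on the left. The dark and light blue parts, Wnt7a and Wnt7b, reach 74.8 to 82.04% in the knockout and 83.9 to 88.5% in wild type, and knockout replicate 3 and wild-type replicate 3 have the smallest share of Wnt7a in their genotype.

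The knockout was then compared with wild type. None of the 8 genes passed in limma over 18203 genes tested, where 0.00549% of all genes were called. At an unadjusted p under 0.05 limma listed 0 of the 8, against 5.57% of all genes (3.1% higher and 2.47% lower in the knockout), and the genotypes overlapped in all 8, while they did not overlap for 3.04% of all genes. With the reads recovered from the table, edgeR (quasi-likelihood) called 0 of the 8, against 0% of all genes, and listed 0 at an unadjusted p under 0.05, against 4.55%. DESeq2 on the same reads called 0 of the 8, against 0.0882% of all genes, and listed 0 at an unadjusted p under 0.05, against 6.26%. The authors' deposited table had 0 of the 8 genes at an adjusted p under 0.05, against 0.136% of all genes. The log2 difference was positive for 5 and negative for 3 of the genes, with a median of 0.12. Over all genes tested it was positive for 52.5% and negative for 47.5%, with a median of 0.02. Log2 differences are of normalized counts with 1 added, knockout minus wild type, each with its SE and 95% interval from limma.

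**Figure D3:**
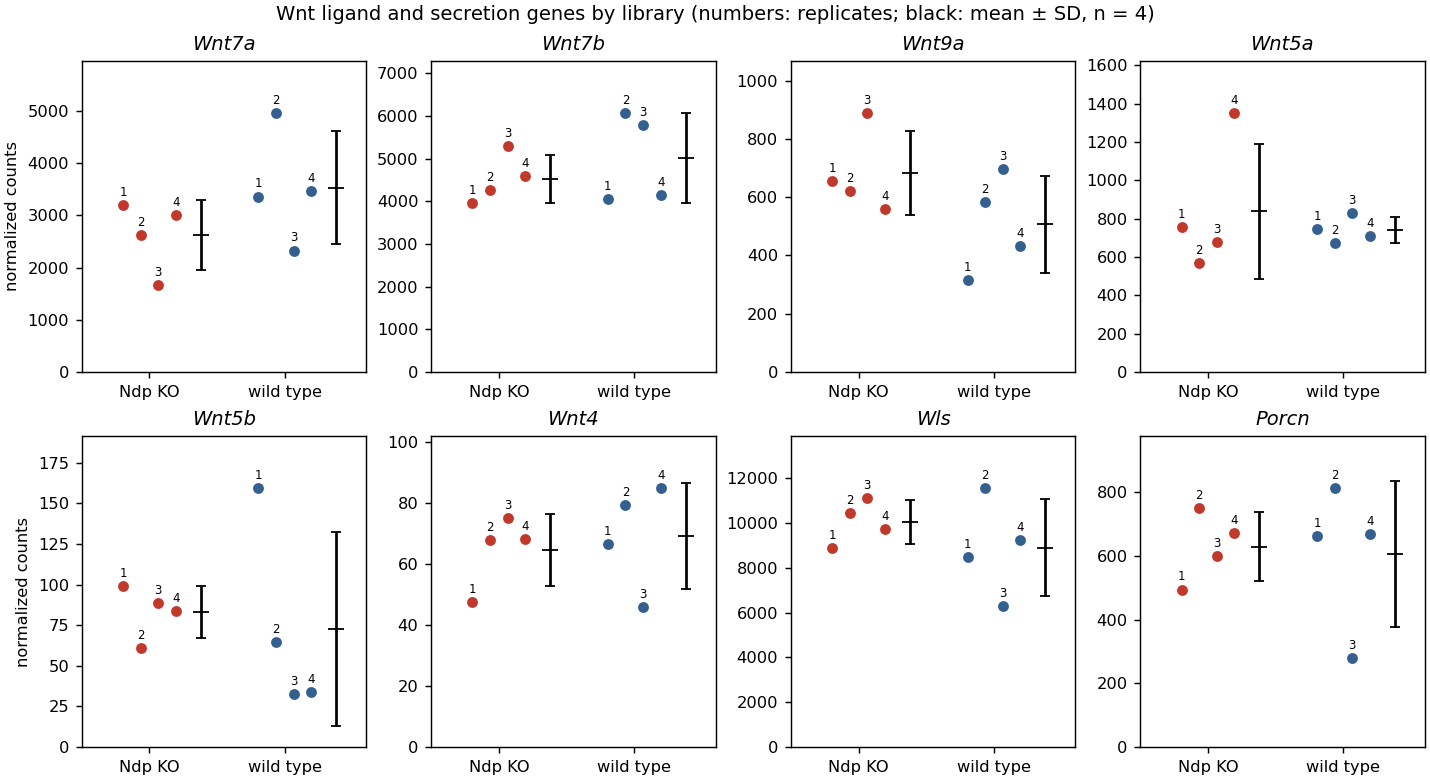
Normalized counts of the 8 genes in each library, knockout libraries in red on the left and wild-type libraries in blue on the right of each panel, numbered by replicate, with the mean and SD of 4 libraries in black. The genotypes overlap in every panel, knockout replicate 4 stands high for Wnt5a at 1352, and wild-type replicate 3 stands low for Porcn at 281.

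Wnt7a (ENSMUSG00000030093, chr6:91363981-91411363, minus strand) encodes a ligand known for roles at synapses and, with Wnt7b, in vessel growth of the brain. It had 3199.7, 2626, 1672 and 3004 normalized counts in the knockout replicates 1 to 4, against 3363, 4967, 2327 and 3465 in the wild-type replicates 1 to 4. Wild-type replicate 3 lay below 3 of the knockout libraries, and the other 3 wild-type libraries lay above all of them. The log2 difference of Wnt7a was -0.42 ± 0.26 (95% interval -0.99 to 0.15, limma adjusted p = 0.927). It was negative under every alternative run, from -0.92 to -0.22. The value nearest to 0 came without knockout replicate 3, and without wild-type replicate 2, the highest library, it was -0.24.

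Wnt7b (ENSMUSG00000022382, chr15:85535437-85582473, minus strand) is the paralog of Wnt7a. Its normalized counts were 3969, 4257, 5293 and 4582 in the knockout replicates 1 to 4, against 4051, 6071, 5780.4 and 4144 in the wild-type replicates 1 to 4. The knockout libraries lay within the range of wild type except replicate 1, which was the lowest of all. A log2 difference of -0.13 ± 0.17 followed (95% interval -0.51 to 0.25, limma adjusted p = 0.979). It was -0.03 without wild-type replicate 2 and -0.22 without wild-type replicate 1. The antisense gene AU022754 overlaps 324 exonic bases of Wnt7b and had 28.3 to 85.8 normalized counts, and the library kit does not mark strand, so a small part of either count could come from the other gene. The paralogs themselves can be told apart by sequence: 0 of 3142 stretches of 31 bases in Wnt7a occur in another gene, and the 236 of 4611 in Wnt7b that do are shared with AU022754.

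The ratio of Wnt7b to Wnt7a, as levels per kb, was 0.853, 1.11, 2.18 and 1.05 in the knockout replicates 1 to 4, against 0.828, 0.841, 1.71 and 0.822 in the wild-type replicates 1 to 4. Replicate 3 stood highest in each genotype, and replicates of the 2 genotypes that share a number are not paired. Leaving those libraries aside, the ratio lay between 0.822 and 1.11 by the union length, between 1.12 and 1.51 by the longest transcript and between 1.196 and 1.62 by coding length.

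Wnt9a (ENSMUSG00000000126, chr11:59306928-59333552, plus strand) encodes a ligand known from joint formation in mice and from blood stem cell formation in zebrafish. It had 656, 623, 889.6 and 561 normalized counts in the knockout replicates 1 to 4, against 315, 584, 695 and 431 in the wild-type replicates 1 to 4. Knockout replicate 3 was the highest and wild-type replicate 1 the lowest library, and wild-type replicates 2 and 3 fell within the knockout range. The log2 difference was 0.47 ± 0.27 (95% interval -0.12 to 1.06, limma adjusted p = 0.917). It was positive under every alternative run, at 0.26 without wild-type replicate 1 and at 0.09 in the pair of libraries that share a date in their titles.

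Wnt5a (ENSMUSG00000021994, chr14:28504750-28527448, plus strand) encodes the best known ligand of the beta-catenin-independent routes, among them planar cell polarity. The knockout replicates 1 to 4 held 758, 566, 676 and 1352 normalized counts and the wild-type replicates 1 to 4 held 745, 674, 831 and 710.4. Knockout replicate 4 stood above all other libraries, knockout replicate 2 lay below them all, and knockout replicates 1 and 3 lay within the wild-type range. The log2 difference was 0.10 ± 0.25 (95% interval -0.46 to 0.66, limma adjusted p = 0.992), and without knockout replicate 4 it was -0.16. That library also had the highest sum of mesenchyme and fibrocyte markers, 35963 normalized counts, against 17440 to 24353 in the other 7. Its sum of macrophage markers was the highest as well, at 5879, against at most 4935 in the others. The part of either kind of cell in its Wnt5a level was not tested.

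Wnt5b (ENSMUSG00000030170, chr6:119432531-119544347, minus strand), the paralog of Wnt5a, had 99.1, 60.8, 88.4 and 83.6 normalized counts in the knockout replicates 1 to 4, against 159, 64.8, 32.7 and 33.7 in the wild-type replicates 1 to 4. These values rest on 29 to 151 reads per library. Wild-type replicate 1 was the highest library of all and wild-type replicates 3 and 4 the lowest. The log2 difference was 0.48 ± 0.51 (95% interval -0.65 to 1.61, limma adjusted p = 0.963), and it was 0.96 without wild-type replicate 1, 0.21 without wild-type replicate 3 and 0.22 without wild-type replicate 4. On the recovered reads it was 0.19 by edgeR. The ratio of Wnt5a to Wnt5b per kb was 2.89 to 6.11 in the knockout and 1.77 to 9.58 in wild type.

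Wnt4 (ENSMUSG00000036856, chr4:137277489-137299726, plus strand), known for kidney tubule and ovary development, had 47.4, 67.7, 74.9 and 68.2 normalized counts in the knockout replicates 1 to 4, against 66.5, 79.4, 46.0 and 84.9 in the wild-type replicates 1 to 4. Each library held 45 to 87 reads of it, and 6.62% of its 31-base stretches occur in other genes. The log2 difference was -0.08 ± 0.36 (95% interval -0.88 to 0.72, limma adjusted p = 0.996), and its sign changed without knockout replicate 1 or wild-type replicate 4.

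**Figure D4:**
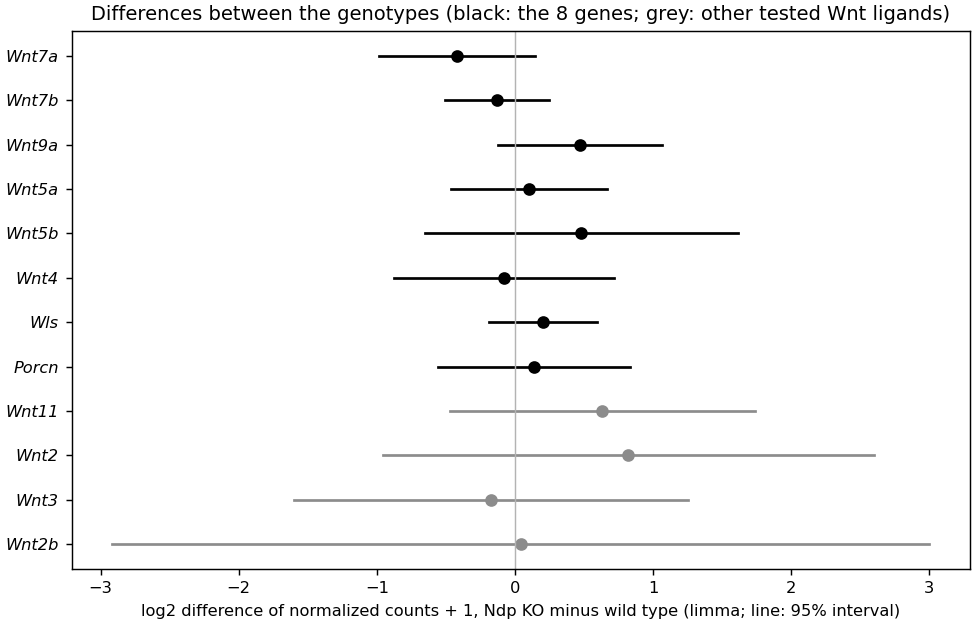
Log2 difference of normalized counts with 1 added, knockout minus wild type, with the 95% interval from limma, for the 8 genes in black and the 4 other Wnt ligand genes tested in grey. Every interval includes 0, and the intervals widen from Wnt7b and Wls to the ligand genes with few reads.

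Wls (ENSMUSG00000028173, chr3:159839672-159938664, plus strand) had 8869.5, 10429.9, 11135 and 9740.3 normalized counts in the knockout replicates 1 to 4, against 8493, 11568, 6316 and 9250.1 in the wild-type replicates 1 to 4. The wild-type libraries spanned the whole range and the knockout libraries lay inside it. The log2 difference of Wls was 0.20 ± 0.18 (95% interval -0.19 to 0.59, limma adjusted p = 0.950), and it was 0.05 without wild-type replicate 3 and 0.34 without wild-type replicate 2.

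Porcn (ENSMUSG00000031169, chrX:8193848-8206525, minus strand) lies on the same chromosome as Ndp, 8.68 Mb away. It had 494, 750.3, 600.0 and 672 normalized counts in the knockout replicates 1 to 4, against 663, 813, 281 and 667 in the wild-type replicates 1 to 4. Wild-type replicate 3 was the lowest library and wild-type replicate 2 the highest. The log2 difference of Porcn was 0.14 ± 0.31 (95% interval -0.55 to 0.84, limma adjusted p = 0.990), and it was -0.19 without wild-type replicate 3.

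Wls, Porcn, Wnt4 and Wnt5b shared their lowest library, wild-type replicate 3. Wnt4 was nearly as low in knockout replicate 1 (47.4 against 46.0 normalized counts), and Wnt5b in wild-type replicate 4 (33.7 against 32.7). Wild-type replicate 3 also had the lowest sum of supporting cell markers, 263915 normalized counts. The next lowest sum, 290905, was that of knockout replicate 1, which was the lowest knockout library for Wls, Porcn and Wnt4 and the highest for Wnt5b. Tectb and Tecta, genes of tectorial membrane proteins, made up 67.2 to 78.5% of that sum in every library. Among the wild-type libraries, 5 of the 12 markers were lowest in replicate 3, namely Hes5, Hey1, Gjb6, Tectb and Otog. The summed hair cell markers were 436371 in wild-type replicate 3, the highest of wild type. Macrophage (2088), endothelial (2603) and Schwann and satellite glia markers (14829) also had their lowest sums in wild-type replicate 3. The mesenchyme and fibrocyte sum was lowest in wild-type replicate 4 (17440) and the spiral ganglion neuron sum in knockout replicate 1 (60866). The part of RNA of supporting cells or of other cells in the levels of these genes was not tested.

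**Figure D5:**
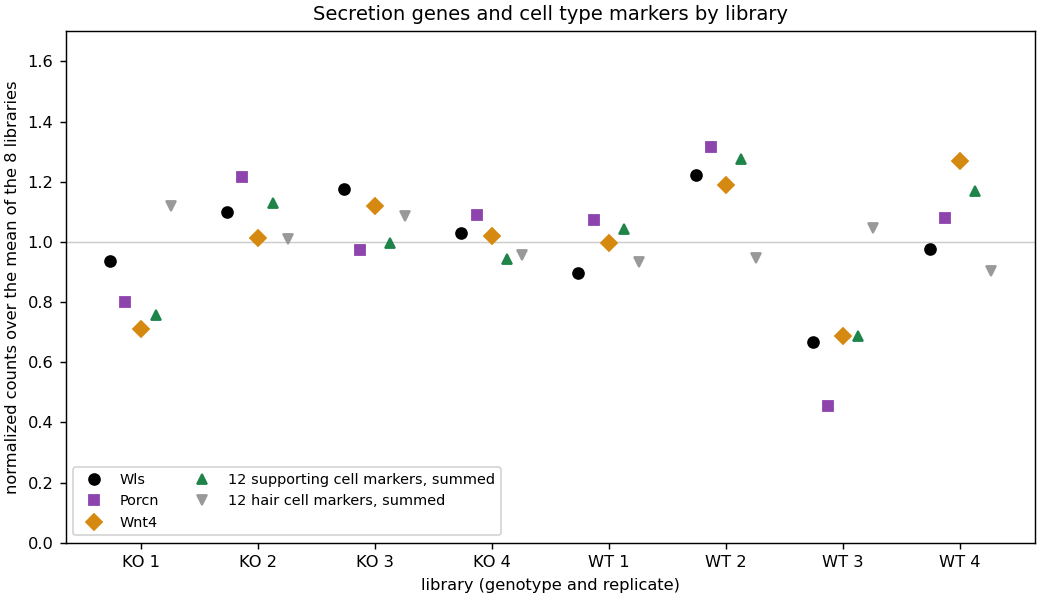
Wls, Porcn, Wnt4 and the summed markers of supporting cells and hair cells in each library, as normalized counts divided by the mean of the 8 libraries. Wild-type replicate 3 is low for the 3 genes and for supporting cell markers and not for hair cell markers, and knockout replicate 1 is also below 1 for those and above 1 for hair cell markers.

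The other genes of ligand secretion were taken from a list of 11 that also holds Wls and Porcn, with the retromer and Snx3, which return Wntless to the Golgi, and Tmed genes of early secretory transport. Limma, edgeR and DESeq2 called 0 of the 11, against 0.00549%, 0% and 0.0882% of all genes. They listed 0 at an unadjusted p under 0.05, against 5.57%, 4.55% and 6.26% of all genes. The list had a median log2 difference of 0.07. The 3 genes with the smallest p were Vps26b, with 3547 ± 329 normalized counts in the knockout and 2942 ± 425 in wild type, Tmed9, with 6670.1 ± 1510 and 7983 ± 1764, and the retromer core gene Vps35, with 12149 ± 603 and 10653 ± 2477 (SD, n = 4 each). Their limma adjusted p were 0.909, 0.940 and 0.940.

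Of the 13 other Wnt ligand genes of the mouse, 7 had a row in the table and 4 reached the minimum of 10 normalized counts in 4 libraries. Wnt11 had 136, 76.5, 303 and 99.0 normalized counts in the knockout replicates 1 to 4, against 109.8, 98.6, 39.8 and 123 in the wild-type replicates 1 to 4, a log2 difference of 0.63 ± 0.50 (limma adjusted p = 0.940). Wnt2, Wnt3 and Wnt2b ranged from 0 to 63.9 normalized counts, and their log2 differences were 0.82 ± 0.80, -0.18 ± 0.65 and 0.04 ± 1.34. Below the minimum, Wnt9b and Wnt8b had 0 reads in 4 and 3 libraries. Of all 10 ligand genes tested, limma, edgeR and DESeq2 called 0, against 0.00549%, 0% and 0.0882% of all genes. They listed 0 at an unadjusted p under 0.05, against 5.57%, 4.55% and 6.26% of all genes.

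Wnt6, another ligand gene, was below the minimum and is shown because of its values. It had 13, 4, 15 and 16 reads in the knockout replicates 1 to 4, against 0 reads in every wild-type library. The genotypes did not overlap, which was so for 2.84% of all genes of the table (1.39% with the knockout higher). Its knockout mean of 12.2 ± 5.82 normalized counts (SD, n = 4) was at least 16.6-fold higher than 0.733 normalized counts, the worth of 3 reads spread over the wild-type group. In limma without a minimum the adjusted p of Wnt6 was 0.441 over 25343 genes, of which 0.00395% passed, in DESeq2 on all genes it was 0.0776, and in the authors' deposited table it was 0.0899, so it passed in none. Most macrophage, endothelial and mesenchyme markers had positive log2 differences in the same libraries (9 of 10, 5 of 6 and 7 of 10), and their part in the reads of Wnt6 was not tested.

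The list of secreted Wnt antagonists and Wnt-inactivating enzymes holds genes whose products bind Wnts, block their co-receptors or inactivate Wnt proteins. Of its 12 genes, 10 were tested. Limma, edgeR and DESeq2 called 0 of them, against 0.00549%, 0% and 0.0882% of all genes. At an unadjusted p under 0.05 limma listed 2, Frzb lower and Wif1 higher in the knockout, edgeR 1 and DESeq2 2 of the 10, against 5.57%, 4.55% and 6.26% of all genes by these tools. Frzb, which encodes a soluble frizzled-related protein, had 3878, 3694, 1905 and 4427 normalized counts in the knockout replicates 1 to 4, against 6255, 9326, 5196 and 6159.8 in the wild-type replicates 1 to 4. The genotypes did not overlap, and 1.58% of all genes tested had no overlap with the knockout lower (1.46% with the knockout higher). The log2 difference of Frzb was -0.99 ± 0.27 (95% interval -1.58 to -0.40) with a limma adjusted p of 0.895. It was -1.13 to -0.72 with any 1 library left out, in runs added after the values of Frzb were seen. In the authors' deposited table its adjusted p was 0.182. Wif1, the gene of Wnt inhibitory factor, had 287 to 718 normalized counts in the knockout and 153 to 378 in wild type, with a log2 difference of 0.86 ± 0.38 (limma adjusted p = 0.895). Dkk3 had 8834 ± 2247 normalized counts in the knockout and 10725 ± 984 in wild type (SD, n = 4 each). Its limma adjusted p was 0.923. Of the 12 supporting cell markers, 4 were above and 8 below 0 in log2 difference, with a median of -0.17, and the genotypes did not overlap in 2, Hes5 and Hey1. Hes5 had 1998 to 4348 normalized counts in the knockout and 5014 to 7528 in wild type, and Hey1 had 2648 to 3681 and 3772 to 6041. Both had a limma adjusted p of 0.895, and the part of supporting cells in the Frzb difference was not tested.

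Receptors and enhancers of Wnt action were counted from lists. Of 8 co-receptor genes other than frizzled genes, limma, edgeR and DESeq2 called 0, against 0.00549%, 0% and 0.0882% of all genes. They listed 0 at an unadjusted p under 0.05, against 5.57%, 4.55% and 6.26% of all genes. The median log2 difference of these co-receptor genes was -0.17. Adgra2 and Reck, whose products form a co-receptor for Wnt7a and Wnt7b, had 67.9 ± 14.2 and 138 ± 34.4 normalized counts in the knockout and 116 ± 59.4 and 181 ± 54.5 in wild type (SD, n = 4 each). Their limma adjusted p were 0.924 and 0.948. Ror1, a receptor gene for Wnt5a, had 215 ± 122 normalized counts in the knockout and 252 ± 62.2 in wild type (SD, n = 4 each, limma adjusted p = 0.962). Of 5 genes tested among the R-spondins, which amplify Wnt signals, and their receptors, limma, edgeR and DESeq2 called 0, against the same shares of all genes called. At an unadjusted p under 0.05 limma listed 1 of these 5, edgeR 0 and DESeq2 1, against 5.57%, 4.55% and 6.26% of all genes. It was Lgr6, an R-spondin receptor gene, with 4900.0 ± 1707 normalized counts in the knockout and 3119 ± 1466 in wild type (SD, n = 4 each), a log2 difference of 0.70 ± 0.30 (limma adjusted p = 0.895). Its relative Lgr4 had 2590.4 ± 389 and 1999 ± 802, and Znrf3, the gene of a ubiquitin ligase that removes frizzled receptors, had 557 ± 100.07 and 493 ± 146 (SD, n = 4 each), with limma adjusted p of 0.923 and 0.973.

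The genes most like each of the 8 across libraries were those with the highest Pearson correlation (r) of log2 values across the 8 libraries, both genotypes together, among up to 11833 genes with a mean of at least 100 normalized counts. These r are a description and carry no test. Wnt7b was most like Ssx2ip (0.981), Wls most like Ppp2r5d (0.976) and Porcn most like Rhoc (0.964). Wnt9a was most like Ptk2b (0.972), Wnt7a most like Dgat2 (0.955) and Wnt5a most like Ahsa2 (0.964). Wnt4 was most like Stn1 (0.966) and Wnt5b most like Chad (0.958). With the second gene of each included, the 16 values ran from 0.922 to 0.981. The highest of so many values over 8 libraries are high by selection. None of the genes was a Wnt ligand or a secretion gene of the list, but ligand genes under the minimum mean, among them Wnt4 and Wnt5b, could not be found. Among the 8 genes themselves r was 0.871 for Wls and Porcn, 0.814 for Wnt4 and Porcn and 0.735 for Wnt4 and Wls. The other pairs ran from -0.580 to 0.514.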

How the data were processed

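RNA of Atoh1-GFP cells was isolated (RNeasy Plus Micro Kit), amplified with SMART-Seq v4 and made into libraries with Nextera XT, per the labels' protocols. The deposited table holds, as signal, the authors' normalized gene counts, that is counts scaled by a size factor of each library (inferred from the values), and the authors' own log2 fold changes and p-values, per the file headers. Tools listed without roles, per the submitters' processing notes, were DESeq2 1.26.0, Salmon 0.14.2 and bcl2fastq 2.20, with the build mm10.

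Division by the smallest step of each column gave whole reads for 100% of 202744 values (within 1e-06). Those may be rounded estimates. A floor of 3 reads was worth 2.34 to 3.49 normalized counts, for counting error only. Of the gene IDs, 25332 were found in GENCODE M21, and 24587 genes had the same coordinates there.

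Genotype labels gave the groups. The replicates were numbered by accession, so equal numbers are no pairs. No label ties pools to animals, and p-values measure only how these libraries vary, possibly for technical reasons. limma 3.58.1 (R 4.3.3) with an intensity trend was run on log2(normalized count + 1), two-sided, with Benjamini-Hochberg adjustment over genes with at least 10 normalized counts in at least 4 libraries and a threshold of 0.05. This is the test the design named for normalized values. Adding 1 can draw the differences of genes with few reads toward 0 (Wnt5b: 0.49 with 0.1 added, 0.48 with 1). These differences are no lower bounds, since edgeR gave smaller values, 0.19 for Wnt5b and 0.37 for Wnt2, where limma gave 0.82. edgeR 4.0.16, DESeq2 1.42.0 and sva 3.50.0 served the alternatives, and the tests were tried on simulated data. Other alternatives were the pseudocount, the minimum count, TMM and CPM scaling and leaving out libraries.

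The 8 genes and all lists were chosen with earlier results of these data known. Named besides them were every other ligand gene tested, up to 3 genes of each other Wnt list with the smallest p and the genes most alike in pattern. Wnt6, Wnt8b, Wnt9b and the marker genes fall outside that rule and were named after their values were seen. No list of genes was tested as a set. Levels per kb use exon lengths of protein-coding transcripts, and the longest transcript and coding length were chosen as alternatives after seeing the data.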

Additional observations from a re-analysis of the deposited data

Results flagged for a closer look

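A library stood apart from the other 3 of its genotype, by Dixon's test at its 95% critical value, in 9 of 115 groups of 4 libraries (58 quantities, many of which share genes), and chance flags about 1 in 20 groups. Wild-type replicate 3 had a Wnt7b to Wnt7a ratio of 1.71 per kb, against 0.822 to 0.841 in the other wild-type libraries, with a Wnt7a share of 30.97% against 46.2 to 48.1% and a Wnt7b share of 52.9% against 38.3 to 40.4%. Its Wls to Porcn ratio was 11.3 per kb, against 6.45 to 7.16. In wild-type replicate 2 the summed ligand level was 3258 normalized counts per kb, against 2295 to 2369 in the others, and Wnt9b had 36.5 normalized counts, against at most 3.49. Wild-type replicate 1 had a Wnt5b share of 2.62%, against 0.521 to 0.750%. Knockout replicate 4 had a mesenchyme and fibrocyte marker sum of 35963 normalized counts, against 18781 to 20640 in the other knockout libraries. Wnt9b had 0.981 normalized counts, a single read, in knockout replicate 2 and 0 in the other knockout libraries.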

How the results depend on the processing

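No call of any of the 8 genes was made under 19 alternatives with a test, and the lowest adjusted p was 0.543. Under the alternatives with a test, the log2 difference changed sign for Porcn without wild-type replicate 3 (-0.19), for Wnt4 without wild-type replicate 4 (0.03) or knockout replicate 1 (0.057) and for Wnt5a without knockout replicate 4 (-0.16). With 1 library left out it ranged from -0.26 to 0.06 for Wnt4, -0.16 to 0.26 for Wnt5a, -0.22 to -0.03 for Wnt7b and -0.19 to 0.32 for Porcn. Wnt7b was at -0.0038 without both libraries of the shared date. Replicate 2 of each genotype, whose titles hold one date, gave -0.92 for Wnt7a, -0.51 for Wnt7b, -0.15 for Wls, -0.25 for Wnt5a, -0.23 for Wnt4, -0.12 for Porcn, -0.09 for Wnt5b and 0.09 for Wnt9a. In this pair the signs of Wls, Wnt5a, Wnt5b and Porcn were the reverse of those over all libraries. This single pair allows no test. Over all genes limma called 1. Counts were 0 with a pseudocount of 0.1, with a minimum of 5 CPM in 4 libraries, with edgeR, with both libraries of the shared date left out and with 1 surrogate variable. They were 16 with DESeq2, 35 with DESeq2 on all genes of the table (added after seeing the data), and 0 to 2 with 1 library left out. Why these counts differ was not tested. TMM and CPM scaling changed no sign of the 8 genes. Wnt4 and Wnt5b fell below the minimum of 5 CPM. Few reads limit Wnt4 and Wnt5b most. No paired analysis was possible because the labels give no replicate numbers and only 1 title date occurs in both genotypes.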

Other observations

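Wls was set against the supporting cell markers within each library, a ratio chosen after the values were seen and given without a test. Per 1000 normalized counts of the 12 summed markers, Wls had 30.5, 24.02, 29.0 and 26.9 in the knockout replicates 1 to 4, against 21.1, 23.6, 23.9 and 20.6 in the wild-type replicates 1 to 4, with no overlap of the genotypes. Without Tectb and Tecta in the sum, the values were 93.9 to 103.5 in the knockout and 73.0 to 95.5 in wild type, and the genotypes overlapped. Porcn had 1.56 to 1.85 per 1000 of the 12 markers in the knockout and 1.06 to 1.66 in wild type.

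The level of Wls per kb was 1.03 to 1.32 times the summed level of the 13 ligand genes in the knockout and 0.707 to 1.05 times in wild type by the union length. It was 0.955 to 1.19 times in the knockout and 0.630 to 0.978 times in wild type by the longest transcript, and 0.646 to 0.806 and 0.419 to 0.661 by coding length. The sum of the ligand genes was 2134 to 2417 normalized counts per kb in the knockout and 2295 to 3258 in wild type, where replicate 2 was the highest and the other 3 libraries reached at most 2369.

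Wild-type replicate 1 stood apart on the surrogate variable, at -0.93, with the other 7 libraries between 0.03 and 0.18. In the same library Wnt5b was highest and Wnt9a lowest. With the surrogate variable as a covariate the log2 difference was 0.98 for Wnt5b and 0.22 for Wnt9a, and neither passed in limma.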
